A study of Mus musculus with 4 samples.

Results

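MHC class II presentation was examined through 9 genes in Ly49H+ NK cells recovered from MCMV-infected hosts: H2-Aa, H2-Ab1 and H2-Eb1, which encode class II chains, Cd74, which encodes the invariant chain, the peptide loading genes H2-DMa, H2-DMb1, H2-DMb2 and H2-Oa, and Ciita, which encodes the class II transactivator. They were taken by gene symbol from a table of 35798 named genes. All 9 were present in the table and passed the filter on low counts, with at least 38 counts in every library. The list was drawn up with the difference between the genotypes already known, so that difference is described here for the 9 genes and is not tested on them.

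Wild-type cells came from CD45.1 donors and TNFR2 KO cells from CD45.2 donors, and purified cells of both kinds were transferred together into NSG mice, which were infected with MCMV (murine cytomegalovirus) a day later. On day 3.5 of infection, Ly49H+ cells carrying CD45.1 or CD45.2 were sorted from spleen by flow cytometry, and poly-A RNA was sequenced. Each genotype had 2 libraries, every one made from spleens of 3 NSG mice pooled together, and same-numbered libraries of both genotypes came from the same pool. NSG hosts lack mature T, B and NK cells but keep myeloid cells, the KO was present in all donor cells and not in one lineage, and the CD45 allele and the sort gate differed along with the genotype. The methods give a single age range for all mice of the study and no age for each group.

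Class II molecules are pairs of an alpha and a beta chain that carry peptides from endosomes to the cell surface, where CD4 T cells read them. The invariant chain escorts new pairs and blocks their groove, endosomal proteases trim it, and the H2-DM pair then exchanges its remnant for other peptides while the H2-O pair restrains H2-DM. Transcription of the class II chain genes depends largely on CIITA. It does not bind DNA itself but docks on RFX, NF-Y and CREB proteins assembled on the X and Y boxes of class II promoters. Dendritic cells, B cells and macrophages are the cells best known for this pathway, and interferon-gamma can switch on Ciita in other cells.

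To show what these promoters look like, RefSeq windows of build GRCm38.p6 were read from 250 bases before to 50 bases after each gene start. Of the 9 genes, 6 had such a window, and H2-DMa had an entry for each of 2 starts. The last 130 bases before the start follow for these 6 genes, 5′ to 3′ on the strand of the gene, with capitals marking the Y box letters GATTGG and the matches of a looser X box, in which the first letters of the X box are left free. Both strands were searched, and matches that ran past the gene start are not in capitals. RefSeq starts can differ from the GENCODE gene positions given later.

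H2-Aa: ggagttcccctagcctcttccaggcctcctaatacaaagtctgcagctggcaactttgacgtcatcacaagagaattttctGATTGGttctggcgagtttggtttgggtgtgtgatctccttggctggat
H2-Eb1: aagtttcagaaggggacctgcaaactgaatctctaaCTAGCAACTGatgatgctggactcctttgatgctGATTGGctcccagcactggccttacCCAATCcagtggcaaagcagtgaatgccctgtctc
H2-DMb1: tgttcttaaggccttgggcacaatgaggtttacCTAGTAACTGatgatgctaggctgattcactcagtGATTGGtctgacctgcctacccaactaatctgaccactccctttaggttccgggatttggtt
H2-DMb2: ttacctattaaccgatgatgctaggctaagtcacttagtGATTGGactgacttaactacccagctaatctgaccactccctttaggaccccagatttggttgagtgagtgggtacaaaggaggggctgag
H2-Oa: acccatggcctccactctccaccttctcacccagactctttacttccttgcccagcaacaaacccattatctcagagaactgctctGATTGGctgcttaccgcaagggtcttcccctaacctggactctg
H2-DMa: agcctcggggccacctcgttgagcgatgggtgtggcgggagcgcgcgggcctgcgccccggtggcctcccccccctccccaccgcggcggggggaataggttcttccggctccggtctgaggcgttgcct

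These stretches lie on chromosome 17, at chr17:34287824-34287953 on the minus strand for H2-Aa and on the plus strand at chr17:34305737-34305866 for H2-Eb1, chr17:34153061-34153190 for H2-DMb1, chr17:34145119-34145248 for H2-DMb2, chr17:34092249-34092378 for H2-Oa and chr17:34122702-34122831 for H2-DMa. The Y box letters were found in windows of all 6 genes, against 16.1% of the 32851 RefSeq windows. They began 49 bases before the start in H2-Aa, 60 in H2-Eb1, 62 in H2-DMb1, 91 in H2-DMb2 and 44 in H2-Oa. H2-DMa differed, since its match lay 199 bases before its downstream start, outside the stretch shown, and its upstream start had none. The full X box was found only in H2-DMb1 among the 6 genes, against 5.33% of all windows, and the looser form in 4 of them, against 50.6%. In H2-Eb1 and H2-DMb1 the looser X box match began 34 and 35 bases ahead of the Y box. The stretch shown for H2-DMa was also the richest in G and C of the 6, at 75.4% against 46.9% to 53.1% in the other 5, but the same stretch before its downstream start had only 29.2%. A match is only a description of letters, and its absence says nothing about the factors that bind there.

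The libraries held 32713256 to 39543650 counts. Levels are in CPM, which sets each count against its TMM-scaled library size, and a negative log2-fold change, from edgeR's quasi-likelihood fit across 13822 genes, means a lower level in TNFR2 KO. A gene was called when its adjusted p was under 0.05 and its absolute log2-fold change was over 1. The targeted gene, Tnfrsf1b, measured 264.7 and 268.6 CPM in wild-type and 55.1 and 58.6 CPM in TNFR2 KO libraries, so that its reads were fewer but not absent. Duplicates were not one library deposited again, since the chi-square per gene averaged 3.29 for the wild-type and 3.49 for the TNFR2 KO pair, where noise alone gives about 1. This does not show whether they differed through the animals or only through library preparation. The fit put the coefficient of variation between duplicates at only 3.33%, and the standard errors and p-values rest on that spread. Scaling on 34 NK cell marker genes in place of TMM moved the median over all genes from -0.003 to -0.79, and the median of the 9 class II genes from -3.23 to -4.02 on the log2 scale, so the changes below are relative to the bulk of genes.

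Class II presentation genes were lower in TNFR2 KO than in wild-type libraries at every step, from the transactivator to the chains. All 9 genes were called lower, where 11.8% of all genes tested were, and 0 higher, where 1.56% were. In all 9 both TNFR2 KO libraries lay below both wild-type libraries, as they did for 37.7% of all genes. Together the 9 genes measured 1884 and 1925 CPM in wild-type and 190.4 and 186.7 CPM in TNFR2 KO. That was 0.192% (95% Wilson interval 0.191 to 0.194%) and 0.196% (0.195 to 0.198%) of the wild-type counts, and 0.0186% (0.0182 to 0.0191%) and 0.0183% (0.0178 to 0.0188%) of the TNFR2 KO counts, where the intervals cover counting error only. In bulk libraries, fewer cells of a type and less RNA per cell cannot be told apart.

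**Figure D1:**
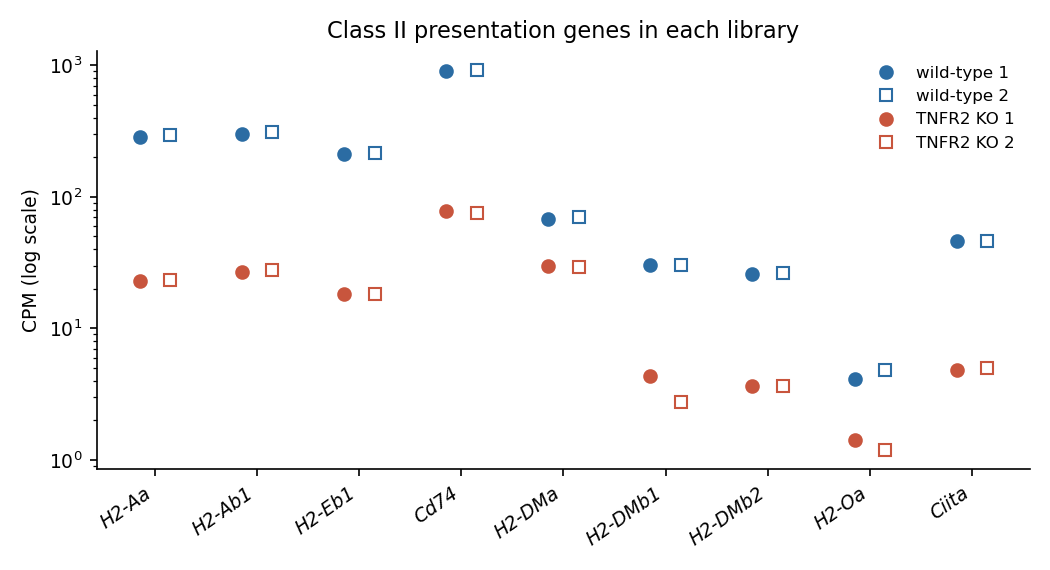
CPM on a log scale of each of the 9 class II presentation genes in the 2 wild-type (blue) and 2 TNFR2 KO (red) libraries, with circles for replicate 1 and squares for replicate 2. Wild-type and TNFR2 KO points are separate for every gene, with the narrowest gap at H2-DMa, and the duplicates of H2-DMb1 in TNFR2 KO lie apart.

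Among the chains, H2-Aa, the alpha chain of I-A, lies on chromosome 17 of GRCm38, minus strand, from 34282744 to 34287823. Wild-type libraries held 286.3 and 294.5 CPM of it, and TNFR2 KO libraries 22.8 and 23.2 CPM. Both TNFR2 KO values were far below both wild-type values, and duplicates lay within 0.041 of each other on the log2 scale. The log2-fold change was -3.66 (standard error 0.0375), the largest of the 9 genes, or a 12.6-fold higher level in wild-type. H2-Ab1, its beta chain partner, on the plus strand from 34257689 to 34269419, measured 303.2 and 312.2 CPM in wild-type versus 26.8 and 28.03 CPM in TNFR2 KO. Its log2-fold change was -3.49 (standard error 0.0374).

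H2-Eb1, the beta chain of I-E, lies on the plus strand from 34305867 to 34316674. It measured 212.8 and 215 CPM in wild-type versus 18.3 and 18.4 CPM in TNFR2 KO, which gave a log2-fold change of -3.54 (standard error 0.0392). Its alpha chain partner is H2-Ea, which is annotated as a polymorphic pseudogene and is not among the 9 genes. H2-Ea had 0 counts in all 4 libraries, which allows up to 0.0776 to 0.0936 CPM depending on the library. Beta chain RNA of I-E was therefore present in both genotypes while alpha chain RNA was not detected at this depth.

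Cd74, the invariant chain on chromosome 18, plus strand, from 60803848 to 60812652, was the most abundant of the 9 genes. It measured 906.8 and 925.8 CPM in wild-type and 78.4 and 75.3 CPM in TNFR2 KO. Its log2-fold change of -3.57 (standard error 0.0302) lay between those of H2-Eb1 and H2-Aa, so that the chains and their escort differed between genotypes by nearly the same factor. Cd74 alone made up 48.1% of the counts of the 9 genes in each wild-type library (95% Wilson intervals 47.8 to 48.5% and 47.7 to 48.5%), and 41.2% (40.1 to 42.3%) and 40.3% (39.1 to 41.6%) in TNFR2 KO.

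The loading genes spread more widely. H2-DMa, the alpha chain of the peptide exchange factor, lies on chromosome 17, plus strand, from 34119541 to 34139101. It measured 67.9 and 69.9 CPM in wild-type and 29.8 and 29.3 CPM in TNFR2 KO, which gave a log2-fold change of -1.22 (standard error 0.0467). This was the smallest difference of the 9 genes, a 2.33-fold higher level in wild-type. H2-DMa overlaps Brd2, a gene for a chromatin reader on the opposite strand, and 9.23% of the 31-base stretches of its transcripts also occur in Brd2. Brd2 measured 348.6 and 348.9 CPM in wild-type and 366.1 and 369.7 CPM in TNFR2 KO. Whether reads of Brd2 were assigned to H2-DMa was not tested.

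H2-DMb1 and H2-DMb2 encode alternative beta chains of the same exchange factor and lie next to each other on the plus strand, from 34153072 to 34160230 and from 34143307 to 34151555. H2-DMb1 measured 30.3 and 30.2 CPM in wild-type and 4.37 and 2.78 CPM in TNFR2 KO, which gave a log2-fold change of -3.06 (standard error 0.134). H2-DMb2 measured 25.8 and 26.4 CPM in wild-type and 3.67 and 3.62 CPM in TNFR2 KO, which gave a log2-fold change of -2.84 (standard error 0.0927). The TNFR2 KO duplicates of H2-DMb1 lay 0.65 apart on the log2 scale, the widest gap between duplicates among the 9 genes. Of the 31-base stretches of H2-DMb1, 31.4% occur in H2-DMb2 as well, so reads could be split between them and each count is uncertain. Summed, they measured 56.1 and 56.7 CPM in wild-type and 8.04 and 6.4 CPM in TNFR2 KO, which still left both TNFR2 KO values well below both wild-type values.

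H2-Oa, the alpha chain of the factor that restrains H2-DM, was the least abundant of the 9 genes. It lies on the plus strand from 34092340 to 34095234 and measured 4.14 and 4.83 CPM in wild-type versus 1.42 and 1.19 CPM in TNFR2 KO. The values rest on 157 and 178 counts in wild-type and 55 and 38 counts in TNFR2 KO, and 18.3% of its 31-base stretches occur in an overlapping antisense gene. The log2-fold change was -1.77 (standard error 0.206), and the genotypes did not overlap.

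Ciita, the transactivator on chromosome 16, plus strand, from 10480059 to 10528418, measured 46.5 and 45.9 CPM in wild-type and 4.81 and 5.03 CPM in TNFR2 KO. Its log2-fold change was -3.23 (standard error 0.0694), the median of the 9 genes, where the median of all genes tested was -0.003. Counts summed per gene do not show which of the promoters of Ciita was used.

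Levels can be compared between genes only per length, and were therefore divided by the length of the principal transcript. In wild-type the order was Cd74 at 650 ± 9.5 CPM per kilobase, H2-Aa at 257 ± 5.12, H2-Ab1 at 254 ± 5.25, H2-Eb1 at 128 ± 0.947, H2-DMa at 41.5 ± 0.844, H2-DMb1 at 21.5 ± 0.0261, H2-DMb2 at 18.3 ± 0.315, Ciita at 7.69 ± 0.0787 and H2-Oa at 4.12 ± 0.448 CPM per kilobase (SD, n = 2). H2-Aa and H2-Ab1, both chains of I-A, did not differ beyond their spread. In TNFR2 KO, Cd74 was again the highest at 54.5 ± 1.57 CPM per kilobase, followed by H2-Ab1 at 22.6 ± 0.713, H2-Aa at 20.4 ± 0.297, H2-DMa at 17.8 ± 0.25 and H2-Eb1 at 11.0 ± 0.0104 CPM per kilobase (SD, n = 2). H2-DMa thus stood above H2-Eb1 in TNFR2 KO and below it in wild-type. At the low end, H2-DMb1 and H2-DMb2 did not differ beyond their spread in TNFR2 KO, and H2-Oa at 1.2 ± 0.153 CPM per kilobase stood above Ciita at 0.819 ± 0.0255 (SD, n = 2), the reverse of wild-type.

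Ratios of counts within a library do not depend on the scaling between libraries. H2-Ab1 was 1.06 times H2-Aa in both wild-type libraries and 1.18 and 1.21 times in TNFR2 KO. Cd74 was 3.17 and 3.14 times H2-Aa in wild-type and 3.45 and 3.24 times in TNFR2 KO, and H2-Eb1 was 0.743 and 0.73 against 0.806 and 0.79 times. The chains and the invariant chain therefore kept nearly the same proportions while their levels differed by more than 11-fold.

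The loading genes kept these proportions less closely, and to different degrees. H2-DMa was 0.237 times H2-Aa in each wild-type library and 1.31 and 1.26 times in TNFR2 KO, a 5.42-fold higher ratio. H2-Oa was 0.0145 and 0.0164 times H2-Aa in wild-type and 0.0625 and 0.0511 times in TNFR2 KO, a 3.68-fold higher ratio. The beta chains of H2-DM moved less, with H2-DMb1 at 0.106 and 0.103 times H2-Aa in wild-type and 0.192 and 0.12 times in TNFR2 KO (1.5-fold), and H2-DMb2 at 0.0902 and 0.0898 versus 0.161 and 0.156 times (1.76-fold). For Ciita the ratio was 0.163 and 0.156 in wild-type and 0.211 and 0.216 in TNFR2 KO. H2-DMa was 1.21 and 1.23 times the sum of H2-DMb1 and H2-DMb2 in wild-type and 3.71 and 4.57 times in TNFR2 KO. The ratio of alpha chain to beta chain counts of H2-DM was thus higher in TNFR2 KO. These are ratios of counts and not of levels per length, and whether reads of Brd2 added to H2-DMa was not tested.

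**Figure D2:**
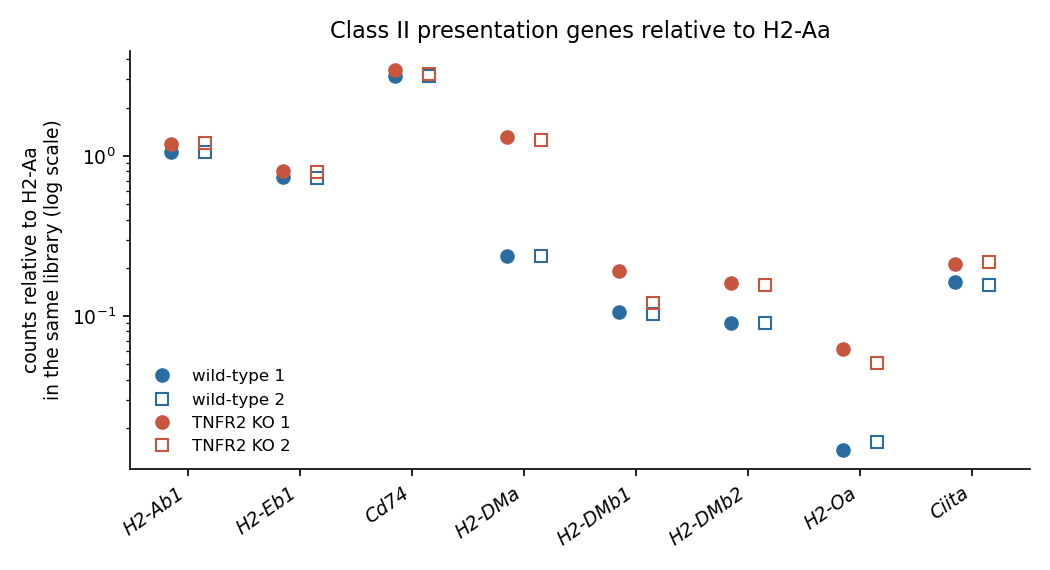
Counts of the other 8 class II presentation genes relative to those of H2-Aa in the same library, on a log scale, for wild-type (blue) and TNFR2 KO (red) replicates 1 (circles) and 2 (squares). Points of both genotypes nearly coincide for H2-Ab1, H2-Eb1 and Cd74, whereas H2-DMa goes from 0.237 in wild-type to 1.31 and 1.26 in TNFR2 KO.

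Of the 9 genes, 7 lie in one stretch of chromosome 17, between H2-Oa and H2-Ea, that spans 252.3 kb and also holds genes of class I presentation. It has 14 protein-coding genes in the annotation used here, and all were tested. The 9 class II genes among them, H2-Ob and H2-Eb2 included, were all called lower, where 11.8% of all genes were, with log2-fold changes from -3.66 to -1.22. The other 5, chosen by position after the values had been seen, ranged from -0.14 to 0.08. Of these 5, 0 were called by edgeR or DESeq2, where edgeR called 13.3% of all genes. With only 5 genes, 0 called lies near that share. Of the 5, 4 had an unadjusted p under 0.05 in edgeR's test. These 4 passed after adjustment too, with edgeR adjusted p from 0.000732 to 0.0198. At the adjusted p threshold alone, 26.2% of all genes were lower and 24.2% higher. The 5 were Brd2, the proteasome genes Psmb8 and Psmb9, and Tap1 and Tap2, whose products carry peptides into the endoplasmic reticulum. Tap1 measured 576.5 and 571.3 CPM in wild-type and 563.3 and 560.9 CPM in TNFR2 KO (log2-fold change -0.03, edgeR adjusted p = 0.313).

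**Figure D3:**
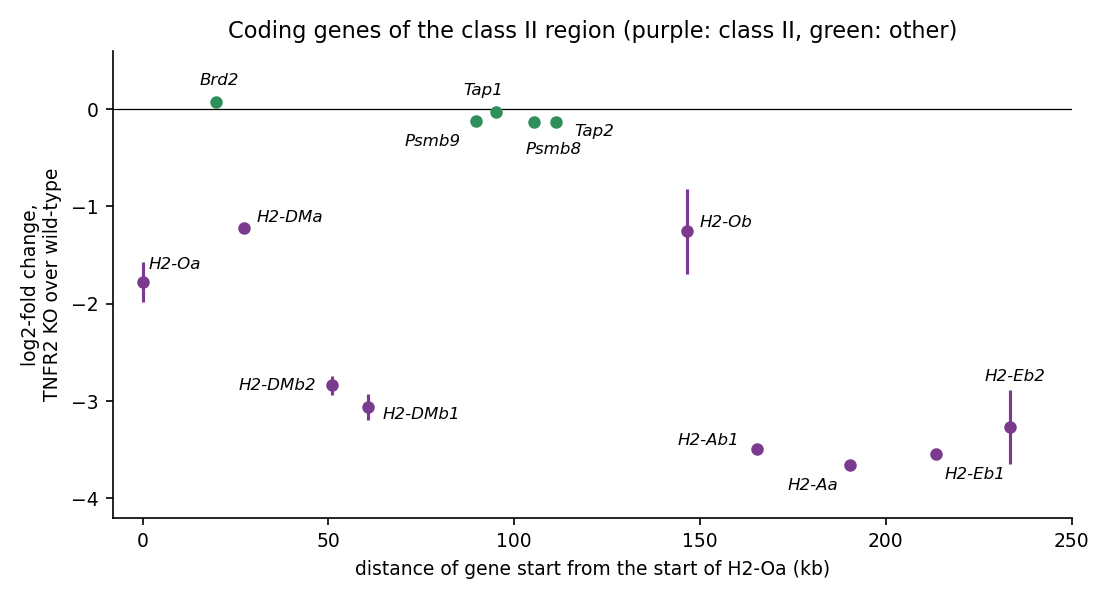
Log2-fold change (TNFR2 KO relative to wild-type) (vertical axis, bars for the standard error) of the 14 protein-coding genes from H2-Oa to H2-Eb2, against the distance of each gene's first base from that of H2-Oa in kilobases. Class II genes (purple) lie between -3.66 and -1.22 on both sides of Brd2, Psmb9, Tap1, Psmb8 and Tap2 (green), which lie between -0.14 and 0.08.

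Other genes of the pathway, listed by role with earlier results of these data known, were tested in the same fit. Of 34 such genes with counts listed, 33 could be tested, and 13 were called lower, where 11.8% of all genes were. At the adjusted p threshold alone, 19 were lower and 8 higher, where 26.2% of all genes were lower and 24.2% higher. The median log2-fold change of the 33 was -0.19, with a range from -3.39 to 0.71.

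The remaining class II genes were scarce. H2-Eb2, a second beta chain gene, measured 1.79 and 2.36 CPM in wild-type and 0.181 and 0.25 CPM in TNFR2 KO, which gave a log2-fold change of -3.27 (standard error 0.381, edgeR adjusted p = 1.62e-05). H2-Ob, the beta chain partner of H2-Oa, measured 0.949 and 0.977 CPM in wild-type and 0.284 and 0.531 CPM in TNFR2 KO. It was called (log2-fold change -1.26, edgeR adjusted p = 0.0303), but lost the call with DESeq2 (adjusted p = 0.177) and in edgeR without wild-type replicate 1 (adjusted p = 0.126), wild-type replicate 2 (0.143) or TNFR2 KO replicate 1 (0.222).

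The factors that sit on class II promoters differed little under TMM scaling. Rfx5, Rfxap, Rfxank, Nfya, Nfyb, Nfyc and Creb1 had log2-fold changes between -0.17 and 0.34, and their median was -0.02. Rfx5, a subunit of RFX, measured 31.6 and 31.98 CPM in wild-type and 28.9 and 28.5 CPM in TNFR2 KO (edgeR adjusted p = 0.0358, but 0.318 with DESeq2 and between 0.0987 and 0.156 with any library left out). Rfxank, another subunit, was higher in TNFR2 KO, at 19.9 and 16.8 CPM in wild-type versus 22.1 and 24.4 CPM (log2-fold change 0.34, edgeR adjusted p = 0.00576), but turned to -0.45 with scaling on NK cell markers and missed the threshold without wild-type replicate 2 (edgeR adjusted p = 0.0545). With that scaling all 7 factors were lower at the adjusted p threshold, from -0.96 for Nfya to -0.45 for Rfxank, where the median of all genes was -0.79. The RNA of Ciita differed 9.41-fold under TMM scaling.

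Among genes of interferon-gamma signalling and inducers of Ciita, the directions were mixed, with 5 lower and 3 higher of 10 at the adjusted p threshold, where 26.2% of all genes were lower and 24.2% higher. Ifng, which encodes interferon-gamma, measured 187.3 and 188 CPM in wild-type and 190.9 and 189.3 CPM in TNFR2 KO (log2-fold change 0.02, edgeR adjusted p = 0.601). Irf1, which carries the signal to the Ciita promoter, was lower, with a log2-fold change of -0.30 (edgeR adjusted p = 1.44e-06). The receptor chains went opposite ways. Ifngr1 was higher in TNFR2 KO, at 335.6 and 340.1 CPM in wild-type versus 493.9 and 504.4 CPM (log2-fold change 0.56, edgeR adjusted p = 1.87e-09), and turned to -0.23 with scaling on NK cell markers. Ifngr2 fell from 25.1 and 24.1 CPM in wild-type to 3.59 and 3.65 CPM in TNFR2 KO (log2-fold change -2.76, edgeR adjusted p = 1.79e-10).

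Spi1, which encodes the myeloid and B cell factor PU.1, fell from 71.7 and 73.05 CPM in wild-type to 8.95 and 9.58 CPM in TNFR2 KO (log2-fold change -2.97, edgeR adjusted p = 8.68e-13). Irf8, a factor of NK and myeloid cells, was higher in TNFR2 KO, with a log2-fold change of 0.60 (edgeR adjusted p = 1.08e-09) that turned to -0.19 with scaling on NK cell markers. Irf4 did not pass the test (log2-fold change 0.02, edgeR adjusted p = 0.876).

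Endosomal proteases were mostly lower, with 5 of 6 tested called lower, where 11.8% of all genes were. Ctss, which encodes the protease that makes the last cut in the invariant chain, measured 363.4 and 361.3 CPM in wild-type and 87.6 and 85.2 CPM in TNFR2 KO (log2-fold change -2.07, standard error 0.0293, edgeR adjusted p = 5.37e-14). Lgmn, an asparagine-specific endopeptidase, and Ctsh fell as well, with log2-fold changes of -2.80 (edgeR adjusted p = 1.52e-13) and -3.39 (5.17e-13). Ctsl and Ctsb had log2-fold changes of -2.49 (edgeR adjusted p = 4.04e-08) and -1.33 (2.99e-13). Ctsd, an aspartic protease, was the exception at 1744 and 1767 CPM in wild-type and 1928 and 1960 CPM in TNFR2 KO (log2-fold change 0.15, edgeR adjusted p = 6.91e-05), which turned to -0.64 with scaling on NK cell markers.

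Of the ubiquitin ligases that remove class II from the surface, Marchf1 fell from 36.4 and 34.07 CPM in wild-type to 4.55 and 4.12 CPM in TNFR2 KO (log2-fold change -3.02, edgeR adjusted p = 2.26e-11). Marchf8 measured 21.1 and 23.9 CPM against 21.5 and 20.04 CPM (edgeR adjusted p = 0.227). Among co-stimulatory ligands, which accompany class II on presenting cells, Cd40, Cd80 and Cd86 were called lower, with log2-fold changes of -3.38, -1.32 and -1.35 (edgeR adjusted p = 1.15e-10, 5.47e-05 and 1.11e-07). Icosl measured 31.2 and 29.9 CPM in wild-type and 30.5 and 31.8 CPM in TNFR2 KO (edgeR adjusted p = 0.725).

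The receptors that bind class II from the other side were tested too. Lag3, an inhibitory receptor found on NK and T cells, was higher in TNFR2 KO, at 107.7 and 108.5 CPM in wild-type versus 175.5 and 177.6 CPM (log2-fold change 0.71, edgeR adjusted p = 1.3e-09), and turned to -0.08 with scaling on NK cell markers. Cd4 measured 274.1 and 270.4 CPM in wild-type and 185.6 and 184.9 CPM in TNFR2 KO, which gave a log2-fold change of -0.56 (edgeR adjusted p = 4.17e-09).

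**Figure D4:**
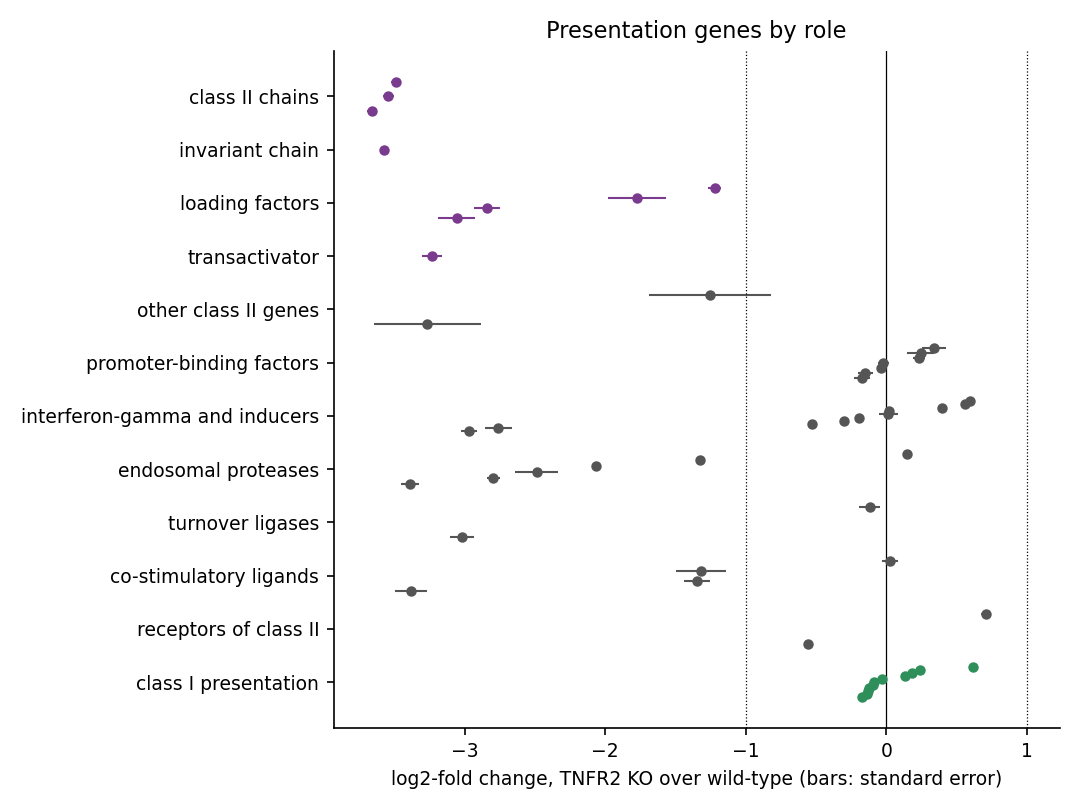
Log2-fold change (TNFR2 KO relative to wild-type) with its standard error (bars) for each tested gene, grouped by role, with the 9 class II presentation genes in purple, other genes of the pathway in grey and class I presentation genes in green. Dotted lines mark the fold change threshold of 1 in either direction. Chains, invariant chain and transactivator lie between -3.66 and -3.23, promoter-binding factors between -0.17 and 0.34.

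Class I presentation, the neighbouring pathway that shows peptides from the cytosol, was compared through 11 genes. The median log2-fold change was -0.09, and single genes lay between -0.17 and 0.62. By the rule above, 0 of the 11 were called by edgeR or by DESeq2, where 13.3% of all genes were called by edgeR. With only 11 genes, 0 called lies near that share. The fold threshold kept the 11 out, since 10 had an unadjusted p under 0.05 in edgeR's test and all 10 passed after adjustment. Of these 10, 6 were lower and 4 higher, where 26.2% of all genes were lower and 24.2% higher at the adjusted p threshold. H2-K1, a class I heavy chain, was higher in TNFR2 KO, at 2526 and 2566 CPM in wild-type versus 3895 and 3906 CPM (log2-fold change 0.62, edgeR adjusted p = 4.34e-11), and turned to -0.17 with scaling on NK cell markers. Nlrc5, a relative of Ciita that drives class I genes through the same RFX proteins, measured 332.3 and 323.4 CPM in wild-type and 369.4 and 375.3 CPM in TNFR2 KO (log2-fold change 0.18, edgeR adjusted p = 8.8e-05), which turned to -0.61 with scaling on NK cell markers. Ciita and Nlrc5 thus differed between genotypes in opposite directions under TMM scaling.

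Macrophage or monocyte markers moved with the class II genes, and the labelled cell type was checked against markers of NK and other cells. Of 34 NK cell markers 33 were higher in TNFR2 KO at the adjusted p threshold under TMM scaling, where 24.2% of all genes were. Gzma and Gzmb, the most abundant of them, measured 5831 and 5779 CPM and 3894 and 3859 CPM in wild-type, so that NK cell RNA was plain in all libraries. Of 19 macrophage or monocyte markers 18 could be tested and 16 were called lower, where 11.8% of all genes were, with a median log2-fold change of -2.93 against -3.23 for the 9 class II genes. Lyz2, a lysozyme of myeloid cells, measured 771.5 and 777.7 CPM in wild-type and 114 and 110.4 CPM in TNFR2 KO. Csf1r, the receptor for macrophage growth factor, measured 254.2 and 255.5 CPM in wild-type and 27.4 and 26.7 CPM in TNFR2 KO.

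The summed macrophage or monocyte list measured 2369 and 2341 CPM in wild-type and 1243 and 1222 CPM in TNFR2 KO, and in TNFR2 KO most of this sum came from Ccr2 (686.6 and 669.7 CPM) and Ly6c2 (312.4 and 314.8 CPM), which were higher there than in wild-type under TMM scaling. Vsig4 was at 0 or 1 count in every library. Ciita was 0.183 and 0.18 times Csf1r in wild-type and 0.176 and 0.189 times in TNFR2 KO, so that these ratios overlapped between genotypes. The overlap rests on the choice of Csf1r (log2-fold change -3.24), which was named after its values were seen. Lyz2 differed less between genotypes (-2.79). H2-Aa was 1.13 and 1.15 times Csf1r in wild-type and 0.831 and 0.871 times in TNFR2 KO. Relative to Lyz2, H2-Aa was 0.371 and 0.379 in wild-type and 0.2 and 0.21 in TNFR2 KO. For H2-DMa the ratio to Csf1r was 0.267 and 0.273 in wild-type against 1.09 and 1.1 in TNFR2 KO. The part of myeloid RNA in the class II counts was not tested, and gene-level counts do not tell class II alleles of donors from those of hosts.

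Dendritic cell markers were scarce or mixed. Of 12 in the list 11 could be tested, and 5 were called lower and 1 higher, where 11.8% and 1.56% of all genes were. The 5 lower were Clec9a, Clec10a, Batf3, Ccr7 and Fscn1, with log2-fold changes from -3.33 to -1.1, and the 1 higher was Itgax. The summed list measured 441.6 and 431.3 CPM in wild-type and 890.2 and 916.2 CPM in TNFR2 KO. Nearly all of this sum was Itgax, an integrin that NK cells also carry, at 419 and 408.9 CPM against 882.4 and 908.3 CPM. Batf3, the next most abundant, measured 6.2 and 7.05 CPM in wild-type and 1.27 and 0.78 CPM in TNFR2 KO. Zbtb46, a factor of conventional dendritic cells, measured 2.93 and 2.52 CPM in wild-type and 2.61 and 2.68 CPM in TNFR2 KO, values that overlapped. Flt3 was under 1 CPM in every library and Cd209a had at most 3 counts.

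Most B cell markers were close to absent. Ms4a1, Cd79a, Pax5, Cr2, Ebf1 and Fcer2a had at most 7 counts in any library, with 0 counts for Pax5 in 3 of the 4, and only 4 of the 11 genes in the list could be tested, with 1 lower and 2 higher at the adjusted p threshold, where 26.2% of all genes were lower and 24.2% higher. The summed list ran from 52.8 to 53.3 CPM in wild-type and from 70.6 to 74 CPM in TNFR2 KO, mostly from Ighm and Cd22. Ighm measured 36.81 and 37.95 CPM in wild-type and 48.11 and 45.6 CPM in TNFR2 KO, and Cd22 12.45 and 11.58 against 23.11 and 22.07 CPM. Cd79b, the 1 gene lower, measured 3.085 and 3.011 CPM in wild-type and 1.965 and 1.904 CPM in TNFR2 KO. Of 10 T cell markers, 7 were lower and 2 higher at the adjusted p threshold, against the same 26.2% and 24.2% of all genes. Their log2-fold changes ran from -0.57 to 0.55, with sums of 1284 and 1285 CPM in wild-type versus 1212 and 1247 CPM in TNFR2 KO. The 9 class II genes, with log2-fold changes from -3.66 to -1.22, differed by more than any tested gene of the B cell and T cell lists.

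**Figure D5:**
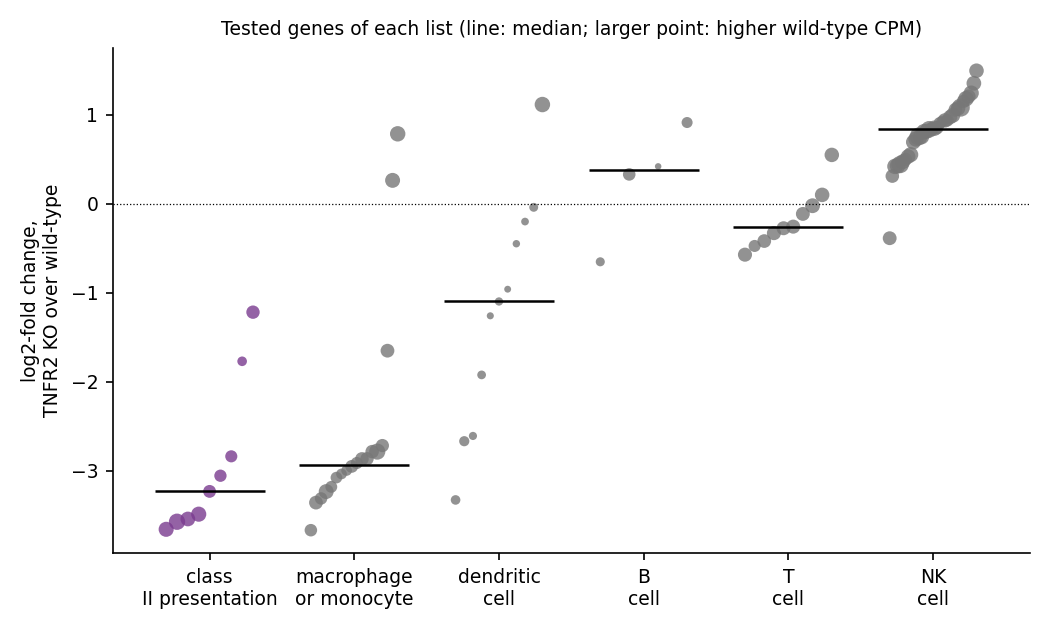
Log2-fold change (TNFR2 KO relative to wild-type) for each tested gene of the class II presentation list (purple) and of the lists of cell type markers (grey), with a line at each median and larger points for higher wild-type CPM. The class II median of -3.23 lies nearest that of the macrophage or monocyte list at -2.93, and the NK cell list lies at 0.84.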

How the data were processed

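Poly-A RNA of 4 libraries was sequenced. The authors trimmed paired-end, stranded reads with Trimmomatic and matched these to mm10 transcripts with kallisto (version 0.46.1, per the submitters' processing notes). They summed them per gene symbol with Tximport, and deposited these estimated counts (expected counts) without scaling. The transcript annotation and kallisto's strand setting are not given in the sources used here. A row with no gene name, 0.0559% to 0.0728% of counts, was left out.

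Counts were rounded and tested with edgeR 4.0.16 in R 4.3.3 (filterByExpr, TMM, quasi-likelihood test, genotype as the only term, Benjamini-Hochberg adjustment over 13822 genes). Standard errors are the log2-fold change divided by the square root of F. The scripts were first tested on simulated data. P-values rest on 2 libraries per genotype from pooled mice, and not on single mice. Whether the spread between duplicates covers differences between animals was not tested.

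The 9 genes and all lists were chosen with earlier results of these data known. Lists covered other class II pathway genes by role, class I presentation, and NK, macrophage or monocyte, dendritic, B and T cell markers. Named genes were the 9, Tnfrsf1b, listed genes, the most abundant markers and those at 0, the coding genes of the class II region (added later), and the 5 genes with the most similar profile. Markers other than these (Csf1r, Batf3, Clec9a, Clec10a, Ccr7, Fscn1, Zbtb46, Flt3, Cd209a, Vsig4, Cd79b and the scarce B cell genes) were named after their values were seen. Ifi30 was not analysed here, and some listed genes are not reported here. Positions, transcript lengths (principal transcript) and shared 31-base stretches come from GENCODE release M21 on GRCm38, which stands in for the authors' annotation. Promoter windows come from RefSeq (GRCm38.p6).

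Labels state that same-numbered libraries share a spleen pool, which pairs them. Across genes, libraries of one number deviated from their groups with a correlation of 0.057. Alternatives were other scalings, DESeq2 1.42.0, other filters, the replicate block and each library left out. Plots were drawn with matplotlib 3.10.9.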

Additional observations from a re-analysis of the deposited data

How the results depend on the processing

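All 9 class II presentation genes kept their direction and their side of the adjusted p threshold in every alternative that tested them (107 values over 12 alternatives). The mean filter of at least 10 CPM left out H2-Oa and called the other 8. With each library left out in turn, 9 genes were called each time, their median ran from -3.43 (without TNFR2 KO replicate 1) to -3.21, and genes called among all ran from 1650 to 1867. With the replicate block, which pairs libraries by pool, 1830 genes, 9 class II genes with a median of -3.23, 13 other pathway genes and 0 class I genes were called, and no call on these lists was lost. Other pathway genes called ranged from 10 (filter at 10 CPM, fewer genes tested) to 16 (scaling on NK cell markers).

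Scaling on NK cell markers gave 3880 genes called, 99.3% of them lower against 88.3% under TMM, and a class II median of -4.02, since it moves every gene by nearly the same amount. The filter at 10 CPM gave 480 genes, as it tests 8765. The X box without its first 2 letters was found in 4 genes against 1.

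Of 525 values for other pathway and class I genes, 468 kept direction and side of the threshold. Directions turned with scaling on NK cell markers for Rfxap (-0.54), Rfxank (-0.45), Nfyb (-0.56), Ifng (-0.77), Ifngr1 (-0.23), Jak1 (-0.39), Irf4 (-0.77), Irf8 (-0.19), Ctsd (-0.64), Icosl (-0.76), Lag3 (-0.082), H2-K1 (-0.17), H2-D1 (-0.55), B2m (-0.66) and Nlrc5 (-0.61). With library size alone Ifng (-0.042), Irf4 (-0.046) and Icosl (-0.034) turned, and with the filter at 10 CPM Ifng (-0.017), Irf4 (-0.021) and Icosl (-0.009). Irf4 also turned without wild-type replicate 2 (-0.012) and without TNFR2 KO replicate 1 (-0.004), and ran from -0.012 to 0.06 with each library left out. With scaling on NK cell markers the median of all genes also moved, from -0.003 to -0.79. The cause of the turns near 0 in the other alternatives was not tested. Values under about 5 CPM, such as H2-Oa and H2-Ob, rest on few counts and limit what can be said of them.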

Other observations

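Across the 4 libraries, the genes whose profile lay nearest the mean profile of the 9 class II genes, out of 8755 genes that averaged 10 CPM or more, were Rpl3-ps1, Gatm, Cxcl10, Gm21188 and Slc11a1. The measure was the Euclidean distance between log2 CPM (with a small pseudocount) centred on each gene's own mean, which ran from 0.0334 to 0.0922. Cxcl10, a chemokine induced by interferons, measured 92.9 and 95.3 CPM in wild-type and 12.3 and 12.1 CPM in TNFR2 KO. Slc11a1, a metal transporter of phagocyte endosomes, measured 96.8 and 99.9 CPM in wild-type and 12.8 and 13.2 CPM in TNFR2 KO. With 2 groups of 2 libraries, such likeness rests mainly on the size of the difference between the genotypes.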
